A study of Mus musculus with 12 samples.

Results

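Rnf128, also called GRAIL, is a ubiquitin ligase anchored in membranes, and it is described here across 3 murine leukaemia lines together with 5 related ligases, Rnf13, Rnf130, Rnf149, Rnf150 and Rnf167, and the Rnf128 regulators Otub1 and Usp8. Members were all probe sets that the platform annotation pairs with exactly 1 gene and that gene is one of these 8. This gave 14 of the 28898 probe sets with 1 gene: 3 each for Rnf13 and Rnf130, 2 each for Rnf128 and Otub1, and 1 each for Rnf149, Rnf150, Rnf167 and Usp8. The 3 lines, with 4 arrays each, were acute myeloid leukaemia cells grown untreated in interleukin-3. The line called Trib1 expressed the pseudokinase Trib1, and the lines called TB13 and TB14 expressed Trib1 together with the transcriptional repressor Bcl11a, so that all 12 arrays came from cells with introduced Trib1. The study concerns the effect of Bcl11a on transcription by PU.1, encoded by Spi1. Nothing in the labels says that the 4 arrays of a line came from separate cultures, so p-values here measure only array-to-array spread, perhaps technical, and a difference from Trib1 rests on a single Trib1 line.

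Ubiquitin ligases of this family are single-pass proteins of endosomes and other membranes. A protease-associated (PA) domain faces the lumen or the cell exterior, and a RING domain in the cytosol recruits the enzyme that carries ubiquitin to a substrate. Rnf128 is best known from T cells, where it is induced in anergy, a state of unresponsiveness, and limits cytokine production. The deubiquitinase Usp8 is known to protect Rnf128 from its own ubiquitination, and Otub1 promotes its loss.

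Rnf128 was chosen by its intensities in these arrays, because it had been among the largest falls from Trib1 to both Bcl11a lines. Its differences from Trib1 are therefore described without a test. The other 7 genes were taken by family or known interaction.

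Because the study concerns PU.1, an ETS factor whose sites are rich in purines around GGAA, the RefSeq promoters (build GRCm38.p6; 250 bases before to 50 after a gene's start) were searched on both strands for GAGGAA, the form of the core that PU.1 prefers, and for GGAA, which every GAGGAA match contains. Of the 8 genes, 7 matched the promoter table, and Rnf150 did not. Promoters of 3 genes are shown: Rnf128, whose intensity was far lower in both Bcl11a lines, Rnf149, a relative that was moderately lower in both, and its regulator Usp8, which was lower in TB13 in 4 of 5 scalings of the arrays and near its Trib1 level in TB14. Capitals mark GAGGAA or its reverse complement.
Rnf128: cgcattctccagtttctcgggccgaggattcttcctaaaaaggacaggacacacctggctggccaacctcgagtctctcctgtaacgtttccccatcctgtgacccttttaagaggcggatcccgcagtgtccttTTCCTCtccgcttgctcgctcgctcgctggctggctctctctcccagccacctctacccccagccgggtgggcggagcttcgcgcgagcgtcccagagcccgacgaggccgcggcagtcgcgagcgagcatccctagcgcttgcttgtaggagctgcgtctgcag
Rnf149: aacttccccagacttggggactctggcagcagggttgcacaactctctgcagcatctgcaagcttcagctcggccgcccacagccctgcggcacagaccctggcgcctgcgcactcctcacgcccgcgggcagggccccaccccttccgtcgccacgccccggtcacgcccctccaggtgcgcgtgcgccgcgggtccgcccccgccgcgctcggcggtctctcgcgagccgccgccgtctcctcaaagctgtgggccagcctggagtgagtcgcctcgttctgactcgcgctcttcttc
Usp8: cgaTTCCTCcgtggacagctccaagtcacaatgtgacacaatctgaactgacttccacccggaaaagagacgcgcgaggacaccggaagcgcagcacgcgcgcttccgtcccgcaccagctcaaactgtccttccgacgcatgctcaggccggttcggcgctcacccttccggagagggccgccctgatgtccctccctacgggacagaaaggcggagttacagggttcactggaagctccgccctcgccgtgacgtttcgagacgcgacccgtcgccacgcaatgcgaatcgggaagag
The Rnf128 sequence lies at chrX:139610370-139610669 on the plus strand, that of Rnf149 at chr1:39577298-39577597 on the minus strand and that of Usp8 at chr2:126707078-126707377 on the plus strand. The Rnf128 start in the table lies inside the span of the gene in the same annotation, so it is not its outermost start. Rnf128 held 1 GAGGAA match, on the minus strand with its outermost base 115 bases before the start, and Usp8 held 1 on the minus strand, 247 bases before the start. Otub1 held 1 on its own strand, just after the start. Thus 3 of 7 genes held GAGGAA, against 28.3% of the 32851 promoters of that length. GGAA was in all 7 and in 96.0% of promoters. A match is only a description of letters.

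The TB13 arrays differed from the other 8 as a set, which touches every TB13 value below. Their upper quartile of intensity was 71.8 to 72.5 units against 102 to 109 on the others, and 18 hybridization controls, which do not come from the cells, had a median log2 difference of -0.93 from Trib1 (0.0010 in TB14). The median log2 change over the 17475 probe sets tested was -0.39 in TB13 and 0.0084 in TB14. TB13 changes are given as deposited and after quantile scaling, which put that median at -0.030, and a direction is called stable here when it was called alike under 5 scalings: none (as deposited), quantile, median, cyclic loess and calibration on the hybridization controls. Of 11 myeloid marker genes on the arrays all 11 exceeded the array medians of 20.8 to 25.9 throughout, with summed intensities of 9411 to 9483 in Trib1, 6283 to 6500.3 in TB13 and 9958 to 10012 in TB14. Of 8 T cell markers, Cd3e and Cd3d did so, with sums over the list of 244 to 253, 285 to 328 and 179.8 to 185 in the same order. The other lists were B cell (1 of 6 above the medians), erythroid (2 of 4), mast cell (5 of 6) and stromal genes (1 of 7), and no marker was listed at 0. Mast cell sums were 8493 to 8609 in Trib1, 7441 to 7648 in TB13 and 9316 to 9392 in TB14. Sums can hide opposite moves of single genes. Among the myeloid markers Cd68 averaged 731 in Trib1 and 258 in TB14, whereas Mpo averaged 226 and 2296. The part of these cell types in the results was not tested. The brightest Bcl11a probe set read 12.5 to 21.5 on all 12 arrays, so it gave no check of the labels. Spi1 averaged 572 ± 15.6 in Trib1, 259.7 ± 25.9 in TB13 and 438 ± 5.58 in TB14 (mean ± SD of 4 arrays).

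Rnf128 was high in the Trib1 line and low in both Bcl11a lines. Its brighter probe set read 870.3, 874, 865 and 879 intensity units on the Trib1 arrays, 49.8, 42.5, 42.9 and 54.0 on the TB13 arrays and 85.1, 96.0, 92.2 and 92.3 on the TB14 arrays. No value of one line fell within the range of another: every Trib1 array was far above the rest, and every TB14 array was above every TB13 array. The means were 872 ± 5.95 in Trib1, 47.3 ± 5.54 in TB13 and 91.4 ± 4.56 in TB14 (mean ± SD of 4 arrays). Trib1 was thus 18.4-fold above TB13 and 9.54-fold above TB14 on the linear scale. In RNA from whole cultures, fewer cells with the transcript and less of it in each cell cannot be told apart.

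The second Rnf128 probe set, for which the annotation gives the same transcript accession, showed the same order of lines. It read 383, 389, 414 and 393 in Trib1, 23.5, 27.2, 28.0 and 26.1 in TB13 and 49.8, 46.2, 51.4 and 52.6 in TB14. Trib1 was 15.1-fold above TB13 and 7.89-fold above TB14. In TB13 these readings lay at the array medians of 25.5 to 25.9, so the size of the difference there is limited by how low a probe set can read. On the log2(intensity + 12.7) scale, which understates changes of dim probe sets, the differences from Trib1 were -3.89 in TB13 and -3.09 in TB14 for the brighter probe set and -3.39 and -2.70 for the second. After quantile scaling the TB13 differences were -3.68 and -3.30, and over the 5 scalings the brighter probe set ranged from -4.11 to -2.85 in TB13 and from -3.26 to -3.07 in TB14. Among 17475 probe sets the brighter one had the lowest change of all in TB13 and the 8th lowest in TB14. The second ranked 4 and 10. These ranks restate the choice of Rnf128 for its fall and are no separate evidence.

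Rnf128 was chosen by its falls to both Bcl11a lines, not by the difference between them. That difference still uses the same TB13 and TB14 values, so its p-values are not independent of the choice. TB14 was 1.93-fold above TB13 for the brighter probe set and 1.91-fold for the second, log2 differences of 0.80 ± 0.057 and 0.69 ± 0.054 (SE; limma with Benjamini-Hochberg adjustment over all probe sets, adjusted p = 6.68e-11 and 2.69e-10). As deposited 91.2% of all probe sets were called between these lines. After quantile scaling the differences were 0.61 and 0.78 (limma adjusted p = 1.68e-06 and 2.85e-09). Cyclic loess scaling gave 0.00085 for the brighter probe set, which did not pass (limma adjusted p = 0.99), and calibration on the hybridization controls turned the direction, with -0.41 and -0.58. Which of the Bcl11a lines holds more Rnf128 transcript therefore depended on the scaling, whereas the position of both below Trib1 did not.

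**Figure D1:**
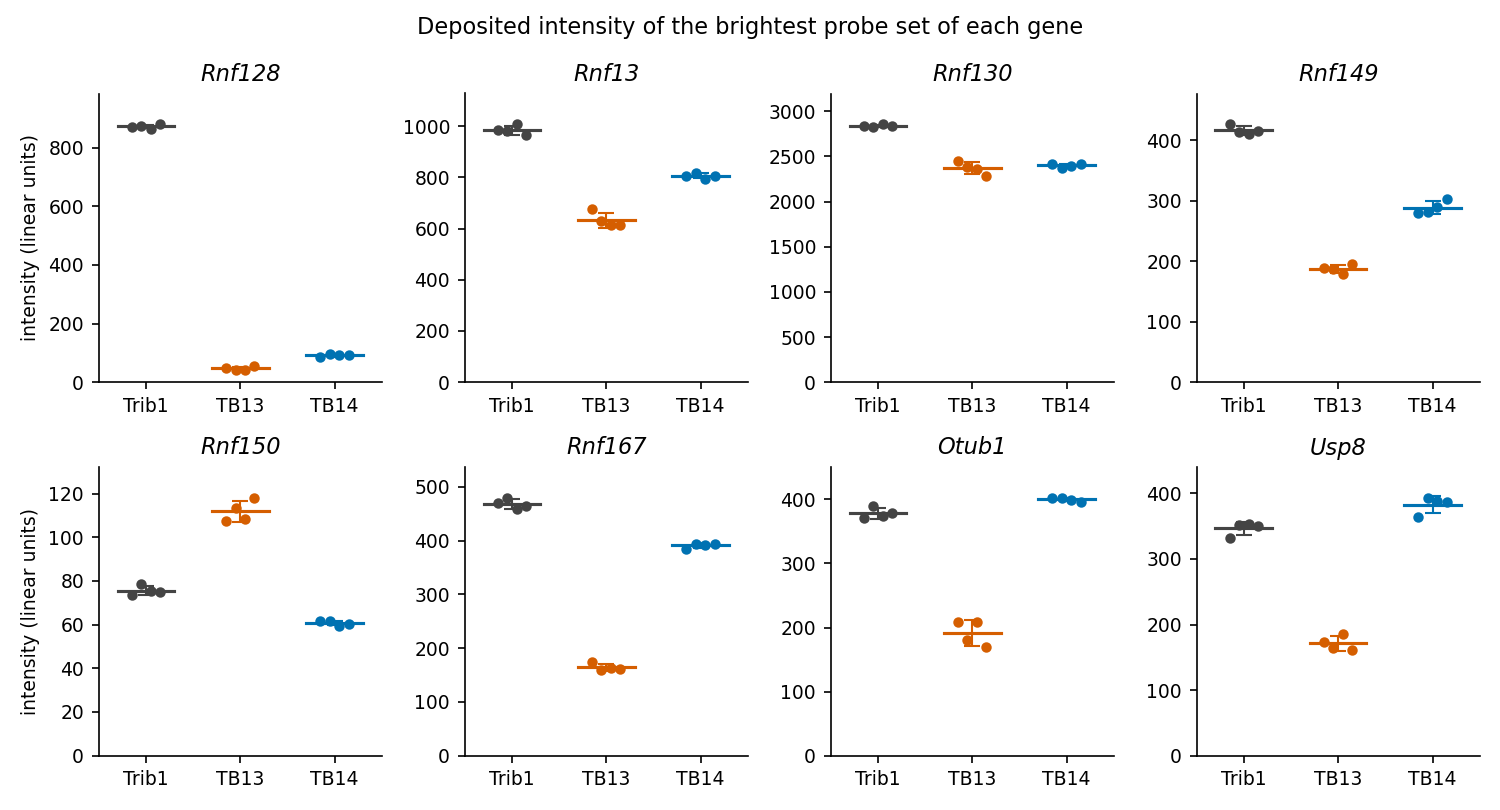
Deposited intensity (linear units, axes from 0) of the brightest probe set of each gene on each of 4 arrays per line. Points are arrays, horizontal lines are means and bars are SD. Rnf128, chosen for its fall, reads 865 to 879 in Trib1 and at most 96.0 in the other lines. The other 7 genes, not chosen by their values, fall less far or not at all. Otub1 and Usp8 stay near their Trib1 level in TB14, and Rnf150 is highest in TB13.

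The 5 related ligases differed between the lines by far smaller amounts. Because Rnf128 was chosen for its large fall, this contrast follows from the choice and does not set it apart from its family. Over the 7 genes other than Rnf128, 11 of 12 probe sets passed the filter on dim values. The exception, the third Rnf13 probe set, read 12.7 to 14.7 on all arrays. Even its TB14 and Trib1 ranges did not overlap. No share of all probe sets without overlap is given, so ranges here, above and below are only described. In TB14 against Trib1, 6 of the 11 fell and 1 rose, beside 49.5% of all probe sets called (20.0% lower, 29.6% higher), and after quantile scaling again 6 and 1, beside 44.0% (19.0% lower, 25.1% higher). Their median log2 change was -0.10, beside 0.0084 for all probe sets, and the largest was -0.51. In TB13 against Trib1, 8 fell and 2 rose as deposited, where 90.4% of all probe sets were called (64.4% lower, 26.0% higher), with a median of -0.63 beside -0.39. After quantile scaling 6 fell and 3 rose, beside 80.0% called (43.1% lower, 37.0% higher), and the median was -0.12 beside -0.030. Under all 5 scalings 5 of the 11 probe sets were lower in TB14, and in TB13 3 were lower and 2 higher. No share of all probe sets called alike in all 5 scalings is given, so these counts are not read as particular to the members. The TB13 and TB14 comparisons share the Trib1 arrays. Between the Bcl11a lines 7 probe sets were higher in TB14 and 2 lower as deposited, beside 65.2% and 26.0% of all, and 3 and 7 after quantile scaling, beside 44.9% and 35.9% (80.8% in all).

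Rnf149, a ligase known to act on the kinase BRAF, fell in both lines under every scaling. It read 426, 414, 409 and 416 in Trib1, 189, 186, 179 and 195 in TB13 and 280.1, 281, 289.8 and 302 in TB14. The ranges did not overlap between any lines. In TB14 the log2 change was -0.51 ± 0.038 (SE; limma adjusted p = 1.03e-09). In TB13 it was -1.10 ± 0.038 as deposited (limma adjusted p = 1.95e-15) and -0.34 ± 0.038 after quantile scaling (limma adjusted p = 4.25e-07). The order of TB13 and TB14 was not stable: TB14 was above TB13 by 0.59 as deposited and below it by a log2 difference of -0.20 after quantile scaling.

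Rnf167, a ligase of endosomes and lysosomes known to ubiquitinate the vesicle fusion protein Vamp3, also fell in both lines under every scaling. It read 469, 479.6, 459.9 and 464 in Trib1, 175, 159.7, 163 and 160.3 in TB13 and 385, 395, 392 and 393 in TB14. TB13 stood lowest, and no ranges overlapped. The log2 change was -0.25 ± 0.036 in TB14 (SE; limma adjusted p = 6.98e-06), and in TB13 -1.44 ± 0.036 as deposited and -0.68 ± 0.032 after quantile scaling (limma adjusted p = 2.15e-17 and 1.49e-11). TB14 was above TB13 in all 5 scalings, by 0.23 to 1.46, so Rnf167 kept the order Trib1, TB14, TB13.

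Rnf130, the mammalian homologue of the fly protein Goliath, fell slightly in both lines at its brightest probe set. That probe set read 2838, 2824, 2855 and 2836 in Trib1, 2451, 2388, 2362 and 2283 in TB13 and 2412, 2377, 2394 and 2419.9 in TB14. Both Bcl11a lines lay below Trib1, and their own ranges overlapped. The log2 changes were -0.24 ± 0.018 in TB14 and -0.26 ± 0.018 in TB13 (SE; limma adjusted p = 9.36e-10 and 4.76e-11), or -0.17 in TB13 after quantile scaling, and both were lower in all 5 scalings. Its 2 dimmer probe sets did not follow. One read 25.6 ± 1.38 in Trib1, 62.6 ± 3.35 in TB13 and 26.4 ± 1.53 in TB14 (mean ± SD of 4 arrays), a rise in TB13 under every scaling (log2 change 0.97 as deposited, limma adjusted p = 4.71e-13), and the other lay at 27.1 ± 0.448, 29.4 ± 4.72 and 27.0 ± 1.39 with overlapping ranges. Apart from the TB13 mean of 62.6, which lay above the TB13 array medians of 25.5 to 25.9, these readings are close to the array medians. The probe sets of Rnf130 thus disagree in TB13.

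Rnf13, an endosomal and lysosomal ligase known to interact with the stress sensor Ern1, fell in TB14 at its brightest probe set. The readings were 985, 979.6, 1007 and 965 in Trib1, 675, 629, 615 and 612 in TB13 and 807, 818, 795 and 805 in TB14, with no overlap between lines. The log2 change in TB14 was -0.28 ± 0.029 (SE; limma adjusted p = 1.19e-07), lower in all 5 scalings. In TB13 it was -0.63 as deposited (limma adjusted p = 1.24e-13) and -0.12 after quantile scaling (limma adjusted p = 0.000176), but 0.00052 under calibration on the controls, where it did not pass. The second probe set, at 493 ± 17.8, 294 ± 12.5 and 458 ± 9.44 in Trib1, TB13 and TB14 (mean ± SD of 4 arrays), changed by -0.10 in TB14 (limma adjusted p = 0.0269), a call held in 3 of the 5 scalings, and in TB13 by -0.72 as deposited and -0.0023 after quantile scaling.

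Rnf150, a relative represented by a single dim probe set, changed in opposite directions in the Bcl11a lines. It read 73.6, 78.7, 75.4 and 74.8 in Trib1, 107, 114, 109 and 118 in TB13 and 61.5, 61.8, 59.5 and 60.2 in TB14. Every TB13 array was above every Trib1 array, and every TB14 array was below them. It rose in TB13 by 0.50 ± 0.048 as deposited (SE; limma adjusted p = 9.26e-09) and by 1.09 ± 0.057 after quantile scaling, and in TB14 its change was -0.27 ± 0.048 (limma adjusted p = 0.000122). All 5 scalings called it higher in TB13 and lower in TB14. The difference between the lines, TB14 minus TB13, was -0.76 ± 0.048 (limma adjusted p = 1.15e-11) and ranged from -1.89 to -0.51 over the scalings.

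The regulators of Rnf128 stayed at or near the Trib1 level in TB14. Usp8 read 332, 352, 354 and 349.7 in Trib1, 173, 164, 186 and 161 in TB13 and 363, 393, 389 and 386 in TB14. TB14 lay above Trib1 without overlap, a rise of 0.14 ± 0.044 on the log2 scale (SE; limma adjusted p = 0.0144). This call ended with cyclic loess scaling (limma adjusted p = 0.121) and without Trib1 replicate 1, the lowest Trib1 array (limma adjusted p = 0.0587). In TB13 Usp8 changed by -0.97 ± 0.044 as deposited and -0.20 ± 0.040 after quantile scaling (limma adjusted p = 8.84e-14 and 0.000329), and calibration on the controls gave 0.0069, which did not pass. TB14 was above TB13 in all 5 scalings, by 0.16 to 1.38.

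Otub1, which also blocks ubiquitin-carrying enzymes without cleaving ubiquitin, did not pass in TB14 at either probe set as deposited or after quantile scaling. The brighter read 371, 390.3, 374 and 379 in Trib1, 208, 179.8, 208 and 169.9 in TB13 and 402, 402, 399 and 397 in TB14. The TB14 arrays were all slightly above the Trib1 arrays and the TB13 arrays well below them. The TB14 change was 0.077 ± 0.051 on the log2 scale (SE; limma adjusted p = 0.238), and 0.097 ± 0.046 for the second probe set (limma adjusted p = 0.0878), which averaged 162 ± 3.41 in Trib1, 117 ± 5.62 in TB13 and 174 ± 5.29 in TB14 (mean ± SD of 4 arrays). Of the other 3 scalings, median scaling called the second probe set higher (0.12, limma adjusted p = 0.0345), and no other call was made. With only the 8 Trib1 and TB14 arrays in the fit the brighter probe set passed at the same size (limma adjusted p = 0.00374). In TB13 the probe sets changed by -0.94 and -0.43 as deposited, but by -0.17 and 0.28 after quantile scaling, both called, so the direction of Otub1 in TB13 was not settled.

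**Figure D2:**
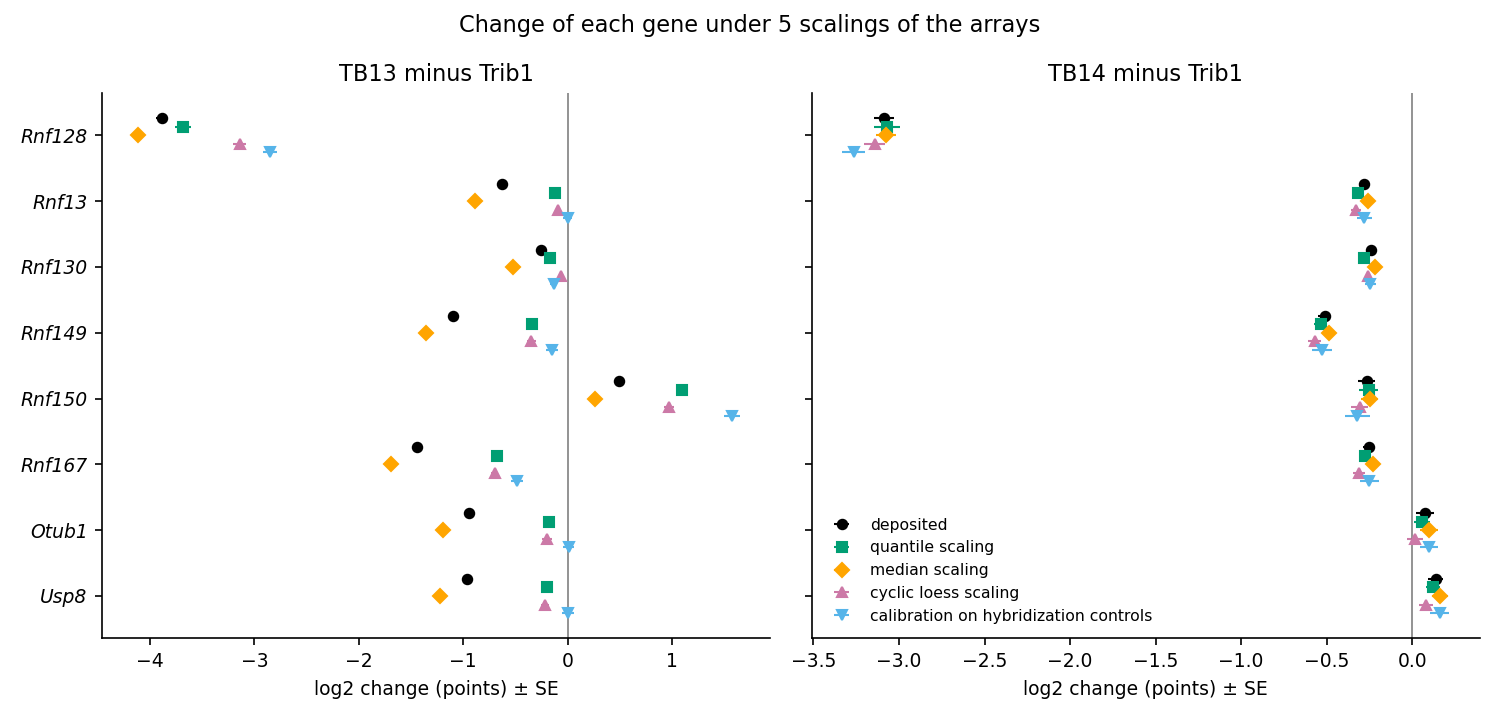
Log2 change against Trib1 (horizontal axis, points ± SE) of the brightest probe set of each gene in TB13 (left) and TB14 (right), with 1 symbol for each of 5 scalings. In TB14 the scalings nearly coincide, whereas in TB13 the change of Usp8 runs from -1.22 to 0.0069 and that of Rnf128 from -4.11 to -2.85.

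The pattern of Rnf128 over the 12 arrays was compared with that of 11222 other genes by the Euclidean distance between log2 profiles, each centred on its own mean. The nearest was Tgm2, transglutaminase 2, at a distance of 1.19, with 1060.0 ± 13.6 in Trib1, 91.6 ± 12.7 in TB13 and 90.8 ± 2.13 in TB14 (mean ± SD of 4 arrays). Next came F13a1, a coagulation factor XIII subunit (1.51), Hgfac, a protease that activates hepatocyte growth factor (1.56), Cyp4f18, a cytochrome P450 of neutrophils (1.59), and Il1r2, the interleukin-1 decoy receptor (1.63). As deposited, the means of Rnf128, Hgfac, Cyp4f18 and Il1r2 were lower in TB13 than in TB14, an order that for Rnf128 depended on the scaling, while Tgm2 was level and F13a1 averaged 21.6 in TB13 and 16.4 in TB14, around or below the array medians. After quantile scaling 4 of these 5 genes were again among the nearest, with Gzma in place of Hgfac. None of the other 7 members was among the 5 nearest: of 11222 genes Rnf167 ranked 506 and Rnf149 543, and Rnf150 was the farthest member at 9366. This distance keeps the size of a change, and Rnf128 was chosen for its large fall. Its nearest genes are therefore bound to be other large falls, and members with small changes bound to lie farther off. The distances rest on 3 lines and are a description.

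**Figure D3:**
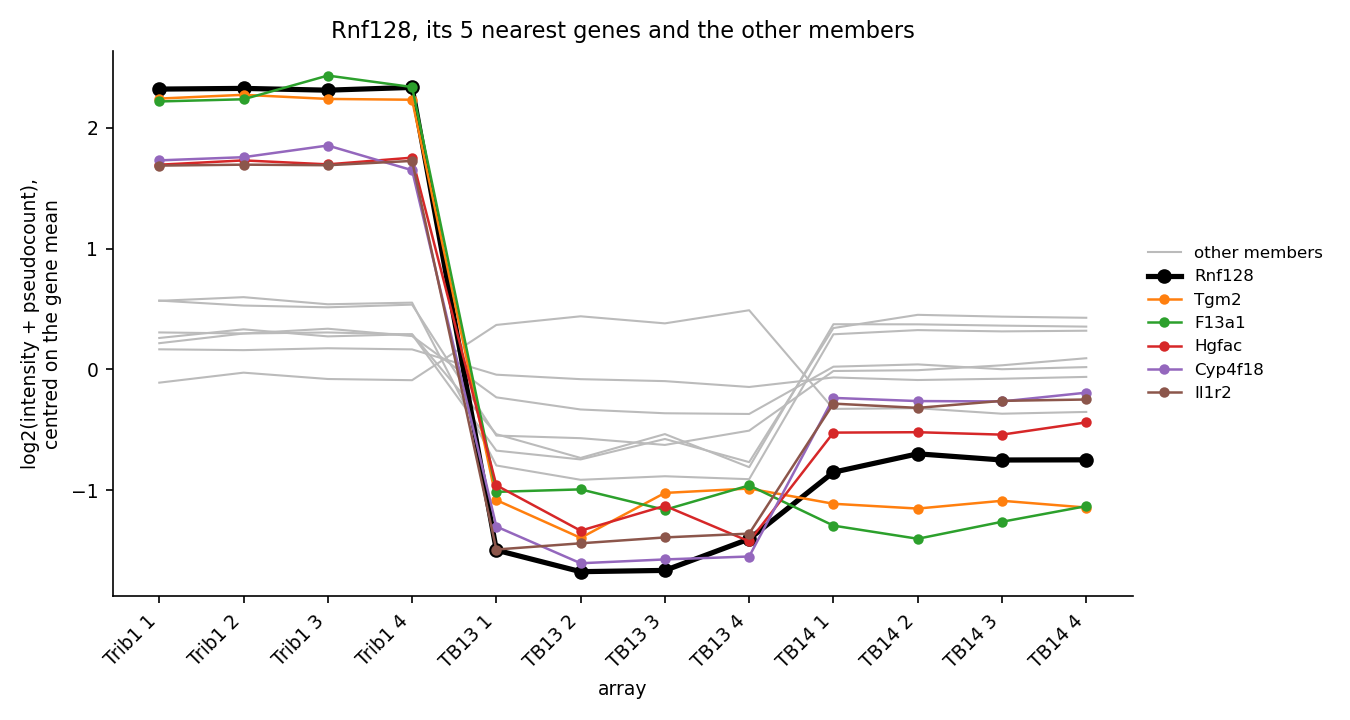
Log2(intensity + 12.7), centred on each gene's mean, for each of the 12 arrays (horizontal axis). Rnf128 is black, its 5 nearest genes are coloured and the other 7 members are grey, with lines only joining the points of a gene. The 5 genes drop from Trib1 to both lines as Rnf128 does, and the members in grey stay within a narrow band.

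Of lists of related genes, 86 of 113 genes were tested, each by its brightest probe set. For genes so represented, limma called 48.6% in TB14 (27.0% higher, 21.5% lower), or 43.8% after quantile scaling (22.9% higher, 20.9% lower). It called in TB13 92.6% as deposited (29.0% higher, 63.6% lower) and 80.3% after quantile scaling (42.0% higher, 38.3% lower). Between TB14 and TB13 it called 92.7% as deposited (63.4% higher in TB14, 29.3% lower) and 80.1% after quantile scaling (39.0% higher, 41.1% lower). All genes had a median log2 change of -0.0024 in TB14, and in TB13 of -0.39 as deposited and 0.026 after quantile scaling. The list counts below are read beside these figures.

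Remaining PA-domain ligases were dim. Of 6 listed, 3 were tested. In TB14 Znrf3, which removes Wnt receptors from the cell surface, rose by 0.19 (limma adjusted p = 0.0265), though not after quantile scaling (limma adjusted p = 0.253). It averaged 78.6 ± 3.61 in Trib1, 53.7 ± 6.82 in TB13 and 91.8 ± 6.09 in TB14 (mean ± SD of 4 arrays). Rnf215 was at 36.9 ± 4.34, 21.0 ± 2.54 and 36.1 ± 1.29, and Znrf4 at 22.5 ± 0.762, 31.4 ± 3.24 and 22.0 ± 0.922, in the same order. In TB13 Rnf215 and Znrf3 fell and Znrf4 rose as deposited and after quantile scaling, but Rnf215 and Znrf3 were called higher under calibration on the controls.

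Other membrane-bound RING ligases, such as the MARCH proteins and ligases of endoplasmic reticulum quality control, moved in both directions, with mostly falls in TB13 as deposited. Of 22 tested, 7 rose and 6 fell in TB14 (median log2 change 0.031), and in TB13 4 rose and 17 fell as deposited (median -0.51) or 9 and 10 after quantile scaling (median 0.026). Rnf19b, a RING-between-RING ligase known from natural killer cells, fell in both lines, from 289.6 ± 10.3 to 105 ± 6.39 in TB13 and 157 ± 1.11 in TB14 (mean ± SD of 4 arrays). Its change in TB14 was -0.84 (limma adjusted p = 1.04e-11), in TB13 -1.36 as deposited and -0.65 after quantile scaling, and both were called lower in all 5 scalings. Its other probe set gave -0.90 in TB14 and -1.57 in TB13. Rnf103 and Syvn1, ligases of the endoplasmic reticulum, fell in TB13 in all 5 scalings, by log2 changes of -1.79 and -1.56 as deposited and -1.73 and -1.01 after quantile scaling. In TB14 Rnf103 changed by -0.23 (limma adjusted p = 0.0383, and 0.0617 after quantile scaling) and Syvn1 by -0.076 (limma adjusted p = 0.361). The second probe set of Syvn1 read -0.60 in TB13 as deposited and -0.023 after quantile scaling.

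Known substrates and partner enzymes of the family, 17 tested, gave 4 rises and 3 falls in TB14 (median 0.0084), and in TB13 2 rises and 14 falls as deposited (median -0.68) or 3 and 12 after quantile scaling (median -0.16). Cd81, a tetraspanin known as a target of Rnf128, rose while Rnf128 was low: it averaged 31.1 ± 2.57 in Trib1, 105 ± 4.79 in TB13 and 212 ± 9.43 in TB14 (mean ± SD of 4 arrays). The log2 changes were 1.42 ± 0.055 and 2.36 ± 0.055 (SE; limma adjusted p = 7.93e-15 and 1.72e-17), and every scaling called both. These are transcript levels, and protein was not measured. Vamp3, the Rnf167 substrate, fell in TB13 in all 5 scalings, from 343 ± 6.59 to 142 ± 15.2, by log2 changes of -1.20 as deposited and -0.45 after quantile scaling, and read 345 ± 4.98 in TB14 (limma adjusted p = 0.916). Ube2v1, a partner of the ubiquitin-conjugating enzyme Ube2n, fell in TB13 at its brightest probe set in all 5 scalings, by -1.19 as deposited and -0.45 after quantile scaling, but its second probe set read 0.12 after quantile scaling.

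Genes linked to T cell anergy, the setting in which Rnf128 is best known, split in direction. Of 16 tested, 3 rose and 7 fell in TB14 (median -0.081), and in TB13 7 rose and 8 fell as deposited (median -0.30) or 7 and 6 after quantile scaling (median 0.0100). Nrp1, neuropilin 1, fell in both lines at each of its 3 probe sets. The brightest averaged 179.9 ± 16.5 in Trib1, 25.6 ± 3.63 in TB13 and 41.1 ± 1.07 in TB14 (mean ± SD of 4 arrays), log2 changes of -2.33 and -1.84 (limma adjusted p = 2.4e-16 and 2.73e-14), or -2.26 in TB13 after quantile scaling. Nfatc1, a transcription factor of T cell activation, fell in both lines at its brightest probe set in all 5 scalings, by -0.89 in TB14 and in TB13 by -1.64 as deposited and -0.92 after quantile scaling. Its 5 probe sets disagreed: the 3 dimmest changed in TB13 by -0.23, -0.034 and -0.043 as deposited and by 0.18, 0.34 and -0.20 after quantile scaling. Tob1, an antiproliferative factor, fell in TB13 at its brighter probe set, from 654 ± 5.17 to 212 ± 7.65, in all 5 scalings (log2 change -1.57 as deposited and -0.83 after quantile scaling). That probe set averaged 647 ± 9.18 in TB14, a change of -0.015 (limma adjusted p = 0.729). The second was dim, at 22.0 in Trib1. It changed by -0.25 in TB13 as deposited and -0.39 after quantile scaling, and rose by 0.21 in TB14 (limma adjusted p = 0.000943).

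Endosomal sorting and deubiquitinase genes, among which Usp8 works, numbered 28 tested, with 11 rises and 7 falls in TB14 (median -0.037), and in TB13 3 rises and 24 falls as deposited (median -0.61) or 8 and 9 after quantile scaling (median 0.00066). Usp33, a deubiquitinase, averaged 16.9 ± 1.16 in Trib1, 20.9 ± 2.15 in TB13 and 85.6 ± 4.27 in TB14 (mean ± SD, n = 4). Its TB14 change was 1.73 on the log2 scale, higher in all 5 scalings. Its Trib1 and TB13 readings lay below the array medians, so it passed the filter only through TB14, where it was high. The rise, 1 of the 11, is therefore described without a p-value, and its size depends on how low a probe set can read. Chmp3, a subunit of the ESCRT-III membrane scission complex, fell in TB13 in all 5 scalings, from 143 ± 4.72 to 37.7 ± 5.13 (log2 change -1.63 as deposited and -1.54 after quantile scaling), and averaged 160.3 ± 3.49 in TB14, where its change of 0.15 was not called after quantile scaling (limma adjusted p = 0.0489 and 0.324). Vps4a, the ATPase that recycles ESCRT-III, changed by -1.06 in TB13 as deposited and -0.51 after quantile scaling, and under calibration on the controls it did not pass.

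**Figure D4:**
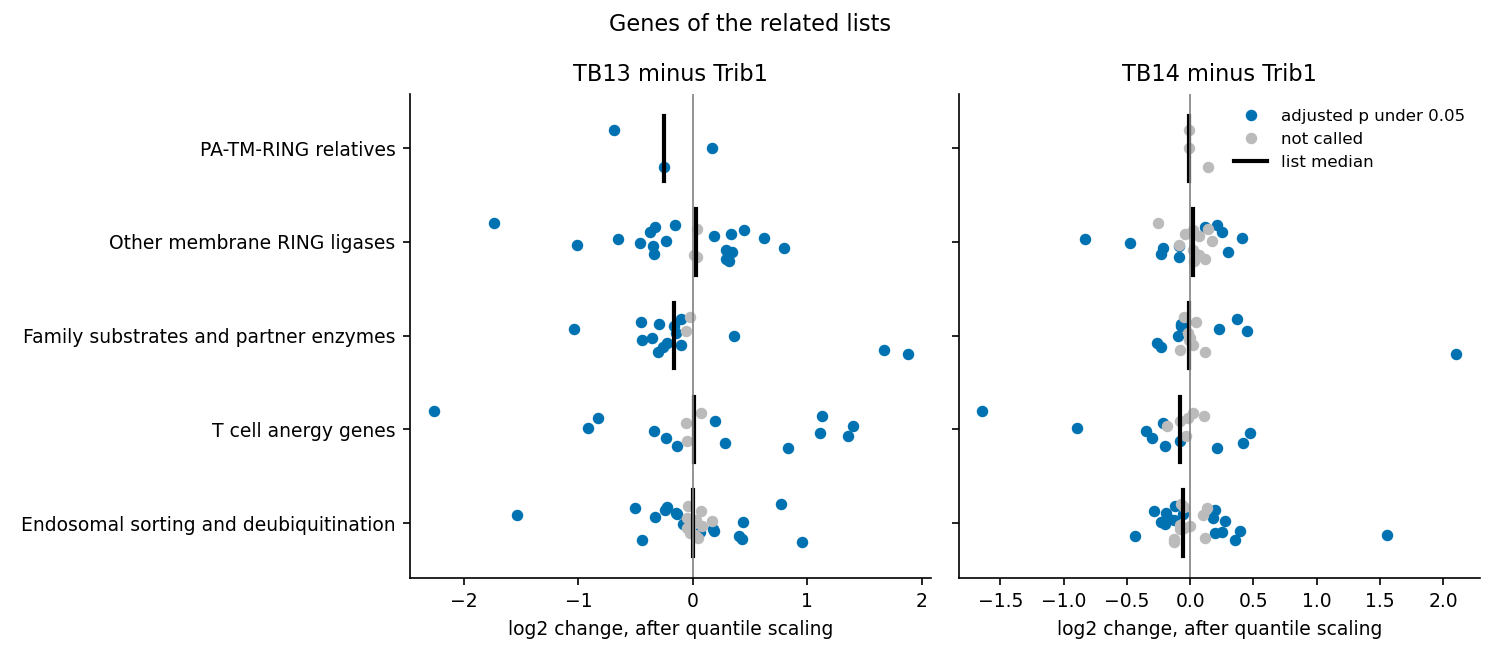
Log2 change against Trib1 after quantile scaling (horizontal axis) of the tested genes of 5 lists in TB13 (left) and TB14 (right). Each point is a gene, blue where limma called it at an adjusted p under 0.05 and grey otherwise, and black bars are list medians. The medians lie between -0.25 and 0.026 in TB13 and close to 0 in TB14, with Cd81 at 1.88 and 2.10 and Nrp1 at -2.26 and -1.64 far from their lists.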

How the data were processed

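The data were 12 arrays of total RNA, 4 for each of the lines Trib1, TB13 and TB14. The authors deposited linear intensity values, and the submitters' processing notes name MAS5. Sources used here do not give its version, scaling target or filters. Gene names came from the platform annotation: 28898 of 45141 probe sets had 1 gene, 551 several, 15588 none, and 104 were controls.

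Values were analysed as log2(value + 12.7), with the 25th percentile of all values, 12.7, as pseudocount. Retained probe sets exceeded the median of the array on 4 or more of 12 arrays, 17475 in all for 11223 genes, a filter unaware of the lines. A probe set above the median on the 4 arrays of a single line could still pass, as Usp33 did. The filter favours a rise of such a probe set in that line, and the list counts include such rises. One limma 3.58.1 model (R 4.3.3) with 3 groups and a variance trend gave 3 contrasts. Calls needed an adjusted p (Benjamini-Hochberg over all 17475) under 0.05. Depth has no meaning for arrays, and their number limits the precision. On simulated data for TB14 against Trib1 over 17475 probe sets, with 50 changed per size, 78% of 1.2-fold and 98% of 1.5-fold changes were recovered, all larger ones were, and 9 unchanged probe sets were called. The data had far more changes, with 49.5% of probe sets called, so these rates need not hold there.

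The members, lists and rules were chosen with earlier results of these data known. Named were all members, Spi1 and Bcl11a, the 5 genes nearest to Rnf128, and up to 3 called genes of each list with the largest change from Trib1. Calibration fitted the mean of 18 hybridization controls as a quadratic curve of each array's values. Alternatives were scalings, filters, pseudocounts, variance models, a replicate block, fewer arrays, 1 probe set a gene, a 2-fold threshold and leaving out each array. Same-numbered arrays of different lines correlated in their deviations from the line means above 0.1 in 1 of 12 cases. The numbers thus gave no clear pairing of the arrays, and pairing was not excluded. Figures used matplotlib 3.10.9.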

Additional observations from a re-analysis of the deposited data

Results flagged for a closer look

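The difference TB14 minus TB13 was called as deposited for the brightest probe set of 7 of the 8 genes, by limma over all 17475 probe sets, of which 91.2% were called. The log2 differences were 0.80 for Rnf128, 0.35 for Rnf13, 0.59 for Rnf149, -0.76 for Rnf150, 1.19 for Rnf167, 1.02 for Otub1 and 1.11 for Usp8. For Rnf128 the call uses the TB13 and TB14 values by which the gene was chosen, so it is not independent of that choice. Beside a median of 0.43 over all probe sets, Rnf13 lay below that shift and Rnf150 ran against it. After quantile scaling the median over all probe sets was 0.050, and the differences were 0.61, -0.20, -0.20, -1.35, 0.40, 0.23 and 0.32 in the same order. The direction was called alike in all 5 scalings for Rnf150, Rnf167 and Usp8, with no share over all probe sets to set beside it. Whether these differences lie in the cells or in the TB13 arrays cannot be told apart, since all TB13 arrays differ from the rest. Of 42 sets of 4 arrays examined, no member's highest or lowest array stood apart from its line by Dixon's test.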

How the results depend on the processing

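Of 576 values of the 24 changes of the members' brightest probe sets under alternatives, 547 kept their direction and call or moved by less than the spread between arrays. Sizes still differed among these: Rnf149 in TB13 against Trib1 changed by -1.10 as deposited and -0.15 under calibration on the controls. A further 4 were classed as weaker and 2 as stronger. Another 10, all of Rnf128 against Trib1, moved without turning. In TB13 against Trib1 the changes turned under calibration on the controls for Rnf13 (0.00052), Otub1 (0.0089) and Usp8 (0.0069), none of which passed. In TB14 against TB13 that calibration turned Rnf128 (-0.41), Rnf13 (-0.28), Rnf149 (-0.38) and Rnf130 (-0.11), quantile scaling turned Rnf13 (-0.20), Rnf149 (-0.20) and Rnf130 (-0.12), and cyclic loess scaling turned the same genes (-0.24, -0.22 and -0.20). For the counts below, higher and lower shares over all probe sets are given above only as deposited and after quantile scaling. Calibration put the median log2 change of all probe sets at 0.56 in TB13 against Trib1 and -0.55 in TB14 against TB13. Counts under the other settings are therefore only described. Those of other members' probe sets in TB13 against Trib1 were 2 higher and 8 lower as deposited and 5 and 3 under calibration. With a 2-fold threshold they were 0 and 2, and 1 probe set a gene gave 1 higher. In TB14 against Trib1 they were 1 higher and 6 lower. The higher count was 2 with median scaling or no variance trend, 3 with only the 8 arrays compared, and 0 with cyclic loess scaling. With a 2-fold threshold both were 0. Leaving out 1 array gave 0 to 2 higher, 0 without Trib1 replicate 1 and 2 without TB13 replicate 2. In TB14 against TB13 they were 7 higher and 2 lower, 3 and 7 with quantile scaling, 4 and 7 with cyclic loess, 2 and 8 under calibration, 3 and 0 with a 2-fold threshold, and 1 lower with 1 probe set a gene. List genes in TB13 against Trib1 were 17 higher and 65 lower, 28 and 39 with quantile scaling, 28 and 33 with cyclic loess, 51 and 20 under calibration, 2 and 16 at 2-fold, 30 higher without a filter and 11 with the stricter filter. In TB14 against Trib1 they were 26 and 23, and 2 and 1 at 2-fold. In TB14 against TB13 they were 67 and 16, 37 and 30 with quantile scaling, 33 and 32 with cyclic loess, 19 and 55 under calibration, 18 and 1 at 2-fold, 9 lower with median scaling and 30 lower without a filter. Over all probe sets 15804, 8656 and 15935 were called in TB13 and TB14 against Trib1 and TB14 against TB13. These became 2804, 437 and 3164 at 2-fold and 10393, 5445 and 10414 with 1 probe set a gene, and without a filter the first and last were 24047 and 24333. The 1-probe-set and filter settings test other numbers of probe sets. The cause of the remaining moves was not tested. With the replicate block 15792, 8555 and 15919 were called, and no call of a member's brightest probe set changed. Pairing by number was not clear and not excluded: 4 of 12 arrays correlated best with their own number. The precision is limited by 4 arrays a line, and readings near the array medians bound how low a change can go.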
